A study of Castanea mollissima with 6 samples.

Results

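A set of 88 genes was strongly lower in the r_3m roots of Chinese chestnut (Castanea mollissima) than in the r_1m roots. Expression was measured by RNA sequencing in 3 r_3m and 3 r_1m root libraries and deposited as FPKM, fragments scaled to the length of the transcript and the size of the library. The genes were picked as near-switched off in r_3m, a name that fits the 49 that averaged under 1 FPKM there better than the 39 that averaged at least 1 FPKM, 8 of them at least 10 FPKM. The members were chosen from these same values. For each gene, d was the log2 of the mean FPKM of the r_3m libraries plus 1, minus the log2 of the mean FPKM of the r_1m libraries plus 1. Genes averaging 1 FPKM or more over the 6 libraries, with a d of -4 or lower, were taken, which gave 88 of 20038 tested genes (0.439%), out of 33991 in the table. Far above the added 1, a d of -4 is a level 16 times lower in r_3m. Because this contrast chose the genes, their difference between the groups is described and not tested.

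Both groups were labelled as root and made from total RNA with directional libraries. The sources used here do not spell out the part of the names after the r, and give no cultivar, plant age, growth condition or treatment for either group, and do not state if replicate libraries represent different plants. Sequencing runs are numbered in a block of their own in each group, so a batch and the group cannot be told apart. The gene IDs are paired with no gene names, so the root label could not be checked against marker genes and no function can be given to any gene below. Genes are identified by their rank in r_1m expression among the 88 and by the first 4 characters of the ID (Cm01 to Cm12, or Cm00), with 2 given by full ID.

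A root holds a dividing tip, an epidermis with root hairs, a cortex, an endodermis and conducting tissue, and many genes are used by one of these cell types or at one stage of its growth. In RNA taken from a whole organ, the loss of a transcript from its cells and the loss of the cells that make it give the same fall in level. The values below therefore cannot tell fewer cells of a type from less RNA per cell. A level in FPKM is a share of its library and not an amount per cell.

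Together the 88 genes held a visible part of the r_1m transcriptome and almost none of that in r_3m. Their summed expression was 347, 335 and 387 FPKM in the r_3m libraries, against 10639, 10729 and 10781 FPKM in the r_1m libraries. This was 0.0404% ± 0.00268 of the total FPKM in r_3m and 1.17% ± 0.00974 in r_1m (SD, n = 3 each). The sums of the r_3m libraries thus lay 30.1-fold below those of r_1m in the mean, and the groups did not overlap. The genes were chosen by this contrast, so nothing is read from that separation. Without the 10 highest members, the sums averaged 104 FPKM in r_3m and 4845 FPKM in r_1m, a 46.7-fold lower level. The median member had 0.575, 0.705 and 0.685 FPKM in the r_3m libraries, against 46.2, 46.8 and 48.6 FPKM in the r_1m libraries. At least 10 FPKM was reached by 6 or 7 members in each r_3m library and by all 88 in each r_1m library.

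**Figure D1:**
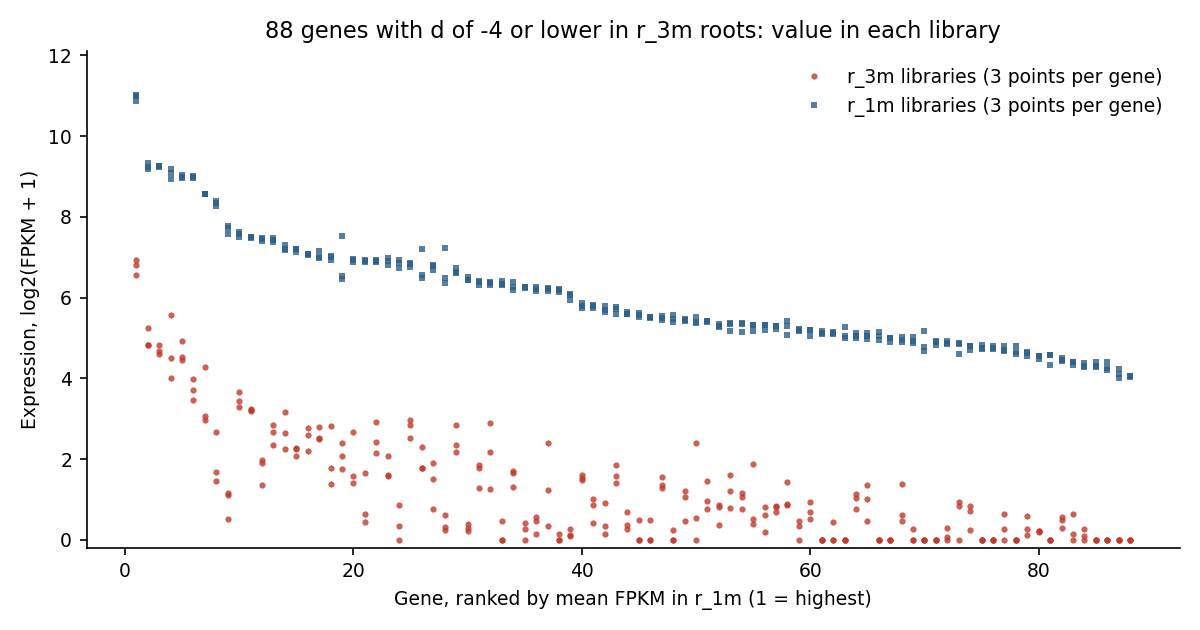
Expression of the 88 genes in each library, as log2(FPKM + 1), with genes ranked by their mean in r_1m. Red points are the 3 r_3m libraries and blue squares the 3 r_1m libraries. The r_3m points lie below the r_1m squares for all 88 genes, and 14 genes have all 3 r_3m points at 0.

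Every r_3m value was below every r_1m value for all 88 members; over all tested genes this held for 36.7%. In limma, a linear model fitted to log2(FPKM + 1) of all tested genes, all 88 were called lower at an adjusted p below 0.05, as were 33.6% of the tested genes. The rule used the contrast, so nothing is read from either count. Among the 74 members with a value above 0 in r_3m, the smallest gap was 9.38-fold, from the highest r_3m value to the lowest r_1m value. The median d of the members was -4.67, against 0.02 over all tested genes, and members ran from -6.75 to -4.01. A d of -5 or lower was found for 24 members and of -6 or lower for 8. In the opposite direction, 140 tested genes had a d of 4 or higher. The standard error of the members' log2 fold changes had a median of 0.13 and a highest value of 0.56.

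The rule sets the shape of the set at its lower edge. With the added 1, a gene at 0 in r_3m needs a mean of at least 15 FPKM in r_1m to be taken. Just inside the threshold, a Cm02 gene (d -4.05) had 0 FPKM in each r_3m library, against a mean of 15.6 FPKM in r_1m. A Cm06 gene (d -4.02) averaged 5.94 FPKM in r_3m and 112 FPKM in r_1m. A Cm08 gene (d -4.01) averaged 0.367 FPKM in r_3m and 21.1 FPKM in r_1m. Just outside it, a Cm03 gene (d -3.99) averaged 1.61 FPKM in r_3m and 40.6 FPKM in r_1m. A Cm04 gene (d -3.97) was listed at 0 in r_3m and averaged 14.7 FPKM in r_1m, and a Cm05 gene (d -3.96) averaged 4.99 FPKM in r_3m and 92.0 FPKM in r_1m. These neighbours of the threshold differ little, so the set is the end of a continuous range of differences and not a separate class.

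**Figure D2:**
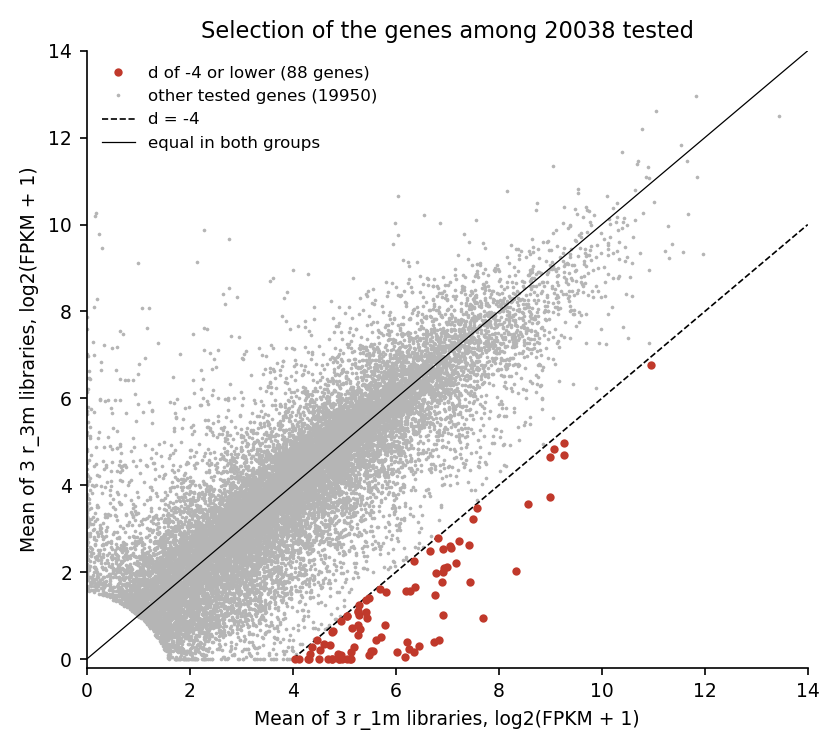
Mean expression in r_3m (vertical axis) against mean expression in r_1m (horizontal axis) for the 20038 tested genes, both as log2(FPKM + 1). Red points are the 88 genes, which lie on or below the dashed line of d = -4; the solid line marks equal expression. The cloud of other genes runs up to the dashed line without a gap.

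The highest member in r_1m was Cm02G02046.gene. It had 111, 121 and 92.9 FPKM in the r_3m libraries, against 1868, 2052 and 2070 FPKM in the r_1m libraries. It was the 15th most expressed gene of the table in r_1m and stood at rank 1736 in r_3m, and was the single member among the 100 highest genes of r_1m. Its log2 fold change was -4.20 ± 0.10 (SE), an 18.4-fold lower mean. This one gene made up 24.0% to 36.0% of the members' summed FPKM in the r_3m libraries and 17.6% to 19.2% in the r_1m libraries. Of all members it kept the largest part of its r_1m level, 5.42%, so that at 108 FPKM in r_3m it was strongly reduced but still well expressed.

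Another 5 members averaged above 500 FPKM in r_1m, and all 5 kept a measurable level in each r_3m library. The gene at rank 2, a Cm02 gene, had 27.2, 27.2 and 36.8 FPKM in r_3m, against 604, 582 and 649 FPKM in r_1m. At rank 3, a Cm03 gene had 24.4, 23.3 and 27.5 FPKM in r_3m, against 609, 617 and 607 FPKM in r_1m. The groups lay far apart for both, and the Cm03 gene varied little, with a log2 fold change of -4.56 ± 0.07 (SE). The Cm08 gene at rank 4 had 21.6, 15.1 and 46.6 FPKM in r_3m, against 579, 545 and 491 FPKM in r_1m. Its r_3m replicate 3 was more than 2 times both other r_3m libraries, which gave a wide error on its log2 fold change of -4.38 ± 0.36 (SE). The Cm11 gene at rank 5 averaged 24.1 ± 4.68 FPKM in r_3m and 509 ± 16.7 FPKM in r_1m (SD, n = 3 each). The Cm01 gene at rank 6 had 14.9, 12.0 and 9.97 FPKM in r_3m, against 501, 510 and 512 FPKM in r_1m. It was the most reduced of these 6, 41.4-fold lower in the mean with a log2 fold change of -5.28 ± 0.13 (SE).

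Members below 500 FPKM in r_1m averaged from 10.9 FPKM down to 0 FPKM in r_3m. The Cm02 gene at rank 7 had 6.77, 7.40 and 18.5 FPKM in r_3m, against 380.1, 380.2 and 377 FPKM in r_1m. The Cm05 gene at rank 8 had 1.73, 2.18 and 5.39 FPKM in r_3m, against 309, 324 and 335 FPKM in r_1m. It was the most abundant r_1m transcript of the set to keep less than 1% of its level, at 0.961%. The Cm01 gene at rank 12 had 2.75, 1.58 and 2.94 FPKM in r_3m, against 167, 173 and 177 FPKM in r_1m, a 71.1-fold lower mean. At rank 30, a Cm06 gene had 0.23, 0.17 and 0.32 FPKM in r_3m, against 85.3, 85.0 and 90.9 FPKM in r_1m. Its mean was 363-fold lower, a ratio loosely fixed because its r_3m values were below 1 FPKM. Other members were less reduced and very even: the Cm06 gene at rank 11 had 8.12, 8.52 and 8.33 FPKM in r_3m, against 179, 177 and 182 FPKM in r_1m. Its libraries were alike within each group, and its standard error of 0.06 on a log2 fold change of -4.27 was the smallest of the set.

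Across the set, the median member kept 1.69% of its r_1m level, and the median of the r_3m means was 0.782 FPKM. The kept part was larger in genes that had been more abundant, as the rule partly requires. It had a median of 4.86% in the 6 members above 500 FPKM in r_1m, 2.67% in the 23 between 100 and 500 FPKM, 1.07% in the 14 between 50 and 100 FPKM and 0.724% in the 45 between 15 and 50 FPKM. Members made up 2.61% of the 230 tested genes above 500 FPKM in r_1m and 1.38% of the 1666 between 100 and 500 FPKM. They made up 0.731% of the 1916 between 50 and 100 FPKM and 0.805% of the 5588 between 15 and 50 FPKM. Of the 1000 most expressed genes of r_1m 12 were members, and of the 1000 most expressed of r_3m none was. Over all tested genes the share of members was 0.439%. The rule used these same means, so nothing is read from these counts.

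A group of 14 members was listed at 0 in all 3 r_3m libraries, so no fold change is given for them. The highest of these in r_1m was Cm05G02208.gene, at rank 61, which was listed at 0 in the 3 r_3m libraries and had 33.8, 34.8 and 33.5 FPKM in the r_1m libraries. Its r_1m libraries differed little (34.0 ± 0.692 FPKM, SD, n = 3). Next came a Cm09 gene at rank 63, listed at 0 in r_3m and with 31.1, 37.7 and 31.8 FPKM in r_1m. The group carried 9 further ID prefixes besides Cm05 and Cm09, and its r_1m means ran down to 15.6 FPKM with a median of 26.1 FPKM. The lowest single r_1m value of the 14 was 15.05 FPKM. The 43 members above 50 FPKM in r_1m included none of this kind: each kept a value above 0 in at least 1 r_3m library.

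A further 7 members were at 0 in 2 of the r_3m libraries, with 0.11 to 0.40 FPKM in the remaining one, and 9 were at 0 in 1 library. The other 58 had a value above 0 in all 3. By library, 24 members were at 0 in r_3m replicate 1, 19 in replicate 2 and 22 in replicate 3, against none in the r_1m libraries. Sequencing depth moved with these counts in part: taking r_1m replicate 1 as 100%, relative depth was 64.0%, 84.4% and 88.9% in the r_3m libraries and 94.7% and 88.0% in r_1m replicates 2 and 3. Replicate 1 of r_3m was the shallowest and had the most zeros. Absolute depth is unknown, so no upper limit can be set on a value of 0, and the part of depth in these counts was not tested.

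In some members, what remained of the expression in r_3m differed between its libraries. Of the 39 members with a mean of at least 1 FPKM in r_3m, 18 were highest in replicate 3, 14 in replicate 1 and 7 in replicate 2 (46.2%, 35.9% and 17.9%). This order was close to that of the 577 other tested genes in the same range of r_3m means with a d of -2 or lower, at 43.3%, 36.9% and 19.8%. In 7 of the 39 (17.9%) replicate 3 was at least 2 times both other libraries. Among the 17172 other tested genes in the same range of r_3m means this was so for 1.78%, and among those 577 genes for 4.51%. Levels within that range were not matched between these sets, and the part of level in the shares was not tested. The 7 were the Cm08, Cm02 and Cm05 genes at ranks 4, 7 and 8, a Cm12 gene at rank 18, a Cm07 gene at rank 20, a Cm02 gene at rank 50 and a Cm03 gene at rank 55. The Cm12 gene had 1.61, 2.43 and 6.06 FPKM in r_3m, against 121, 131 and 128 FPKM in r_1m. The Cm07 gene had 1.97, 1.65 and 5.40 FPKM in r_3m, against 117, 120 and 123 FPKM in r_1m. The Cm02 gene at rank 50 was the most uneven, with 0.46, 0 and 4.28 FPKM in r_3m, against 41.3, 40.1 and 44.6 FPKM in r_1m. In r_1m, where the 7 genes were at far higher levels, the SD was at most 8.22% of the mean.

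The opposite order occurred as well. A Cm01 gene at rank 21 had 2.17, 0.55 and 0.35 FPKM in r_3m, against 122, 120 and 117 FPKM in r_1m. A Cm02 gene at rank 37 had 4.26, 1.35 and 0.26 FPKM in r_3m, against 71.1, 73.8 and 74.2 FPKM in r_1m. In both, replicate 1 was the highest r_3m library by more than 2 times and replicate 3 the lowest, and none of the 39 was 2 times higher in replicate 2 than in both others. The highest r_3m library was thus not the same in all 39 members, and the part of library-wide differences in this was not tested. The coefficient of variation (SD over mean) of the r_3m libraries had a median of 48.2% for the 12 members of 1 to 2 FPKM, 29.7% for the 14 of 2 to 5 FPKM, 17.8% for the 5 of 5 to 10 FPKM and 18.8% for the 8 of at least 10 FPKM. For other genes of the same levels with a d of -2 or lower it was 32.8%, 25.2%, 29.4% and 20.0%, and for all other genes 28.3%, 21.5%, 15.6% and 10.6%. In both of these sets the highest class was taken only up to 110 FPKM. Members were thus above the other lower genes in the first 2 classes and below them in the last 2. These shares and spreads are over genes, which are not replicates, and were not tested.

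**Figure D3:**
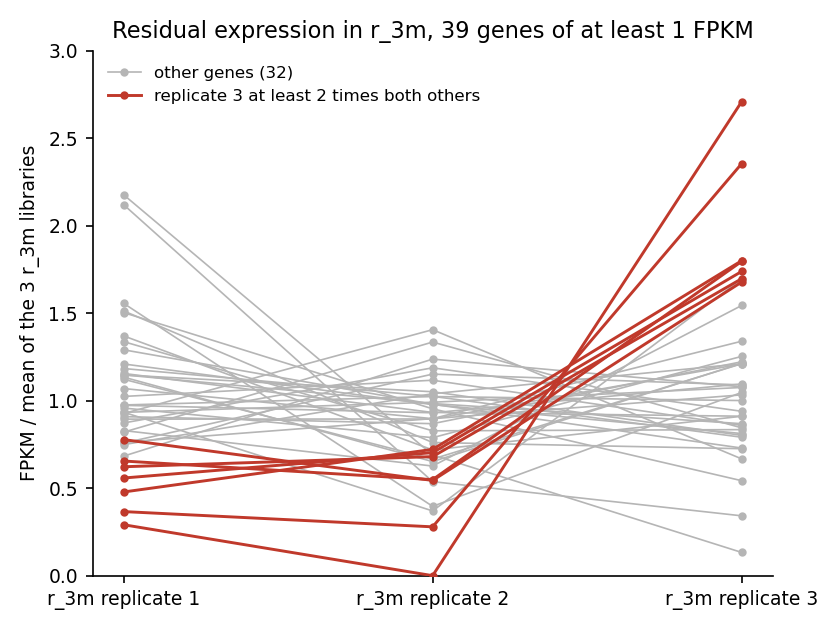
FPKM in each r_3m library divided by the mean of the 3 r_3m libraries, for the 39 genes with an r_3m mean of at least 1 FPKM. Each line joins the values of 1 gene, and red lines mark the 7 genes in which replicate 3 was at least 2 times both other libraries. The other 32 genes, in grey, include some that were highest in replicate 1.

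In r_1m most members differed by a few percent between libraries. The coefficient of variation of the r_1m libraries had a median of 4.49% for the 45 members of 15 to 50 FPKM, 3.58% for the 14 of 50 to 100 FPKM, 4.01% for the 23 of 100 to 500 FPKM and 4.44% for the 6 above 500 FPKM. For other genes the highest class was taken only up to 2000 FPKM. Beside all other genes of these levels, at 4.02%, 3.03%, 2.63% and 2.33%, members had the higher median in each class, with the widest gap in the highest. Beside the other genes with a d of -2 or lower, members were close below 100 FPKM. Those genes had 4.30% at 15 to 50 FPKM, just below members, and 3.60% at 50 to 100 FPKM, just above them. From 100 to 2000 FPKM members had the higher medians. The class of 500 to 2000 FPKM held only 6 members and 17 of those genes, at 2.25%. These spreads were not tested. A Cm08 gene at rank 70 was listed at 0 in each r_3m library and had 34.8, 26.6 and 24.7 FPKM in the r_1m libraries, a coefficient of variation of 18.7%. The largest spread was in a trio of Cm07 genes with consecutive ID numbers, at ranks 28, 26 and 19 in order of ID. The first had 0.53, 0.25 and 0.19 FPKM in r_3m, against 149, 88.1 and 81.4 FPKM in r_1m. The second had 3.91, 2.42 and 2.44 FPKM in r_3m, against 146, 88.1 and 94.0 FPKM in r_1m. The third had 4.23, 3.21 and 2.39 FPKM in r_3m, against 184, 92.2 and 86.5 FPKM in r_1m. In all 3, replicate 1 stood 1.61 to 2.06 times above the mean of the other r_1m libraries.

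The same excess of r_1m replicate 1 extended over the 3 genes with the ID numbers just before the trio, which were not members. The first of them had 21.2, 22.5 and 18.1 FPKM in r_3m, against 163, 81.9 and 78.8 FPKM in r_1m. The second had 21.8, 18.7 and 15.6 FPKM in r_3m, against 138, 81.0 and 88.0 FPKM in r_1m. The third had 25.1, 20.3 and 16.8 FPKM in r_3m, against 36.1, 22.3 and 21.0 FPKM in r_1m. These 6 neighbours thus shared the high replicate 1 in r_1m, but not the level kept in r_3m. The trio kept 0.304% to 2.71% of its mean r_1m level, and the 3 before it 19.1%, 18.3% and 78.4%. In r_3m these 3 had similar means of 20.6, 18.7 and 20.7 FPKM. In r_1m they averaged 108, 102 and 26.5 FPKM, so the 78.4% went with a lower r_1m level. In r_3m, replicate 1 was the highest library in all but the first of the 6 genes.

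After the trio, the next gene had 40.8, 29.7 and 16.4 FPKM in r_3m, against 27.2, 19.6 and 24.6 FPKM in r_1m, a smaller excess. The gene after that had 15.7, 10.9 and 3.52 FPKM in r_3m, against 10.4, 5.73 and 5.81 FPKM in r_1m, so its replicate 1 was again 1.80 times the higher of the others, at a level below the minimum used next. Such an excess was rare elsewhere among genes above that minimum. Of the 9400 tested genes with an r_1m mean of at least 15 FPKM, 9 had an r_1m replicate 1 at least 1.5 times both other r_1m libraries. Of these 9, 6 were the trio and the 3 genes before it. The remaining 3, a Cm09, a Cm01 and a Cm03 gene, were not members and had a d of -3.85, -3.63 and -1.95. No gene reached a ratio of 1.5 in replicate 2 or 3. Among the other 85 members the ratio of replicate 1 to the higher of the others ran from 0.776 to 1.31. Without r_1m replicate 1, the d of the trio was -6.02, -4.55 and -4.40 in order of ID, against -6.34, -4.82 and -4.83 with it, so all 3 still met the rule. Whether the 6 genes are separate copies or share reads was not tested.

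**Figure D4:**
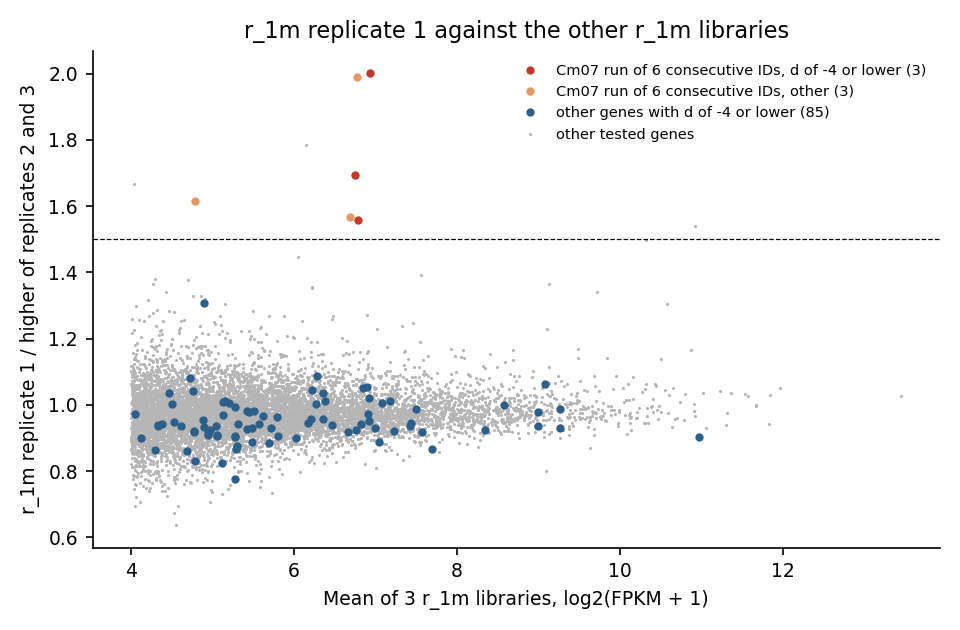
Ratio of r_1m replicate 1 to the higher of r_1m replicates 2 and 3 (vertical axis) against the mean r_1m expression, log2(FPKM + 1), for 9400 tested genes with an r_1m mean of at least 15 FPKM. The 6 genes of the Cm07 run, red for the 3 of the set and orange for the other 3, lie above the dashed line at 1.5, and the other 85 genes of the set, in blue, lie below it.

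The members were spread over all 13 ID prefixes. Cm02 held 12, Cm01 and Cm06 held 11 each, and Cm00 held the fewest, 2. As a share of the tested genes with the prefix, members ran from 0.216% for Cm09 to 0.780% for Cm06, around 0.439% over all. Consecutive ID numbers joined 11 members, in 4 pairs and the Cm07 trio, and 16 members had another member within 10 ID numbers. ID numbers are read here as an order of genes, which was not checked against a genome.

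Several of these groups were part of longer stretches of genes with low d. In Cm03, 4 consecutive IDs were all strongly lower in r_3m. The first, a member, averaged 1.15 FPKM in r_3m and 37.7 FPKM in r_1m, and the fourth, also a member, averaged 2.15 FPKM in r_3m and 82.0 FPKM in r_1m. The 2 between them missed the rule by little, with a d of -3.65 and -3.99. The genes on either side of the 4 were not lower: that before averaged 27.9 FPKM in r_3m and 19.8 FPKM in r_1m, and that after 52.9 FPKM in r_3m and 48.7 FPKM in r_1m. The stretch thus ended within 1 ID on both sides.

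In Cm01, a member pair at ranks 21 and 33 lay between other genes that were lower in r_3m. The second of the pair had 0, 0.38 and 0 FPKM in r_3m, against 79.9, 83.6 and 78.6 FPKM in r_1m. The gene before the pair averaged 2.62 FPKM in r_3m and 23.8 FPKM in r_1m, and the 2 after it averaged 40.8 and 10.4 FPKM in r_3m, against 360.1 and 34.9 FPKM in r_1m. In Cm06, a member pair and a member 6 IDs further on averaged 0.473, 0.240 and 0.133 FPKM in r_3m, against 37.7, 87.1 and 46.5 FPKM in r_1m. Between them, 2 genes were lower as well, with a d of -3.11 and -3.43. Before the pair, the nearest tested gene averaged 3.06 FPKM in r_3m and 32.4 FPKM in r_1m (d -3.04). The gene before that had a d of -1.52. A tested gene within the stretch was not lower, averaging 1.20 FPKM in r_3m and 0.960 FPKM in r_1m. The gene 5 IDs after the last of the Cm06 members averaged 19.9 FPKM in r_3m and 0.267 FPKM in r_1m.

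Not every pair had lower neighbours on both sides. A Cm02 pair at ranks 39 and 44 averaged 0.123 and 0.367 FPKM in r_3m, against 64.2 and 48.1 FPKM in r_1m. The gene after it was level, at 13.8 FPKM in r_3m and 13.5 FPKM in r_1m, while the gene before it was lower, at 127 FPKM in r_3m and 450.3 FPKM in r_1m. A second Cm02 pair, at ranks 75 and 88, had 0 FPKM in each r_3m library and averaged 26.2 and 15.6 FPKM in r_1m. The gene before this pair was lower, at 0.187 FPKM in r_3m and 2.31 FPKM in r_1m. The gene after it was listed at 0 in all 6 libraries and was not among the tested genes.

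**Figure D5:**
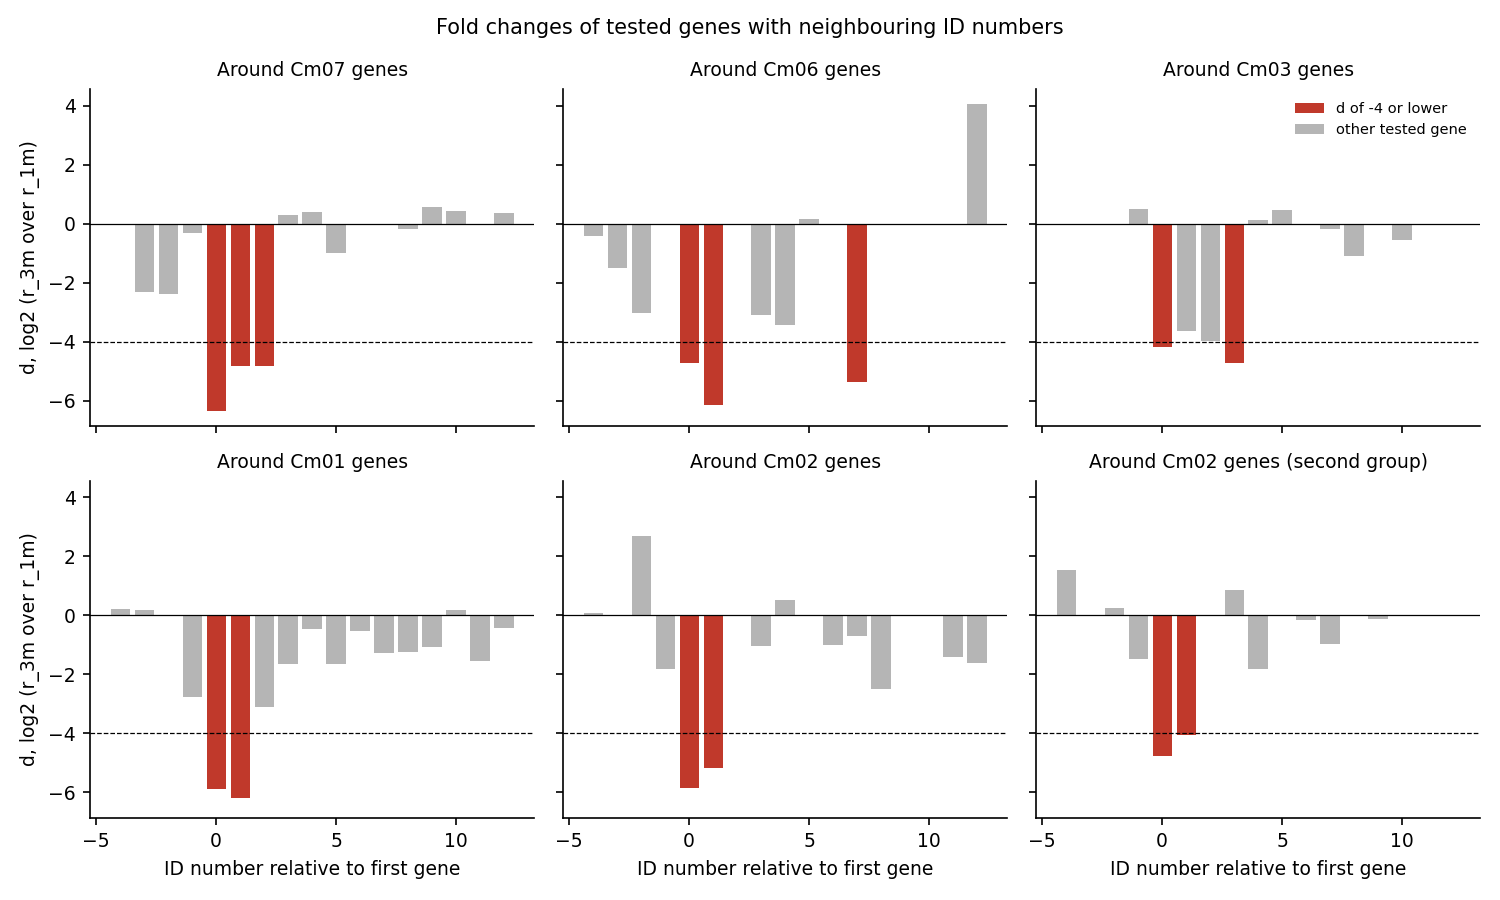
The d of tested genes (log2 of r_3m over r_1m, from group means plus 1) by ID number relative to the first gene of the set, for 6 groups of such genes with near ID numbers. Red bars are genes of the set and grey bars other tested genes; the dashed line marks d = -4. In the Cm03 panel 4 consecutive bars reach -3.65 or lower, and in the Cm07 panel the trio follows 3 genes with smaller differences.

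Over the whole set, genes next to a member in ID number more often had a low d than tested genes at large. Of the 96 tested genes that were not members and had an ID number next to a member's, 41 (42.7%) had a d of -1 or lower and 22 (22.9%) a d of -2 or lower. Of all 19950 tested genes that were not members, 15.2% and 4.16% did. A d of 1 or higher was found for 5 of the 96 (5.21%) and for 12.2% of all others. The median d of these neighbours was -0.51, against 0.03. At a distance of 2 ID numbers 28.4% of 95 genes had a d of -1 or lower, at 5 26.3% of 114 and at 10 24.5% of 102. Among genes with an r_1m mean of at least 15 FPKM the share was 40.0% of 50 next to a member and 16.8% of 9312 others. Neighbours come from the same contrast that chose the members and are not independent of each other, so these shares were not tested, and neither was the part of shared reads or overlapping genes in them.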

How the data were processed

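Root RNA of 6 Castanea mollissima libraries, 3 r_3m and 3 r_1m, was sequenced. FastQC 0.11.9 was used for read quality, Trimmomatic for trimming and STAR 2.7.10b for alignment, per the submitters' processing notes. The authors deposited FPKM values, given to 2 decimals; the sources used here do not state the counter, genome build, annotation or handling of multi-mapped reads. Groups were taken from the titles and replicate numbers from the order of the records. A further 207 columns match no sample title here and were left out.

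The members and lists were chosen with earlier results of these data known. FPKM are not counts, so limma 3.58.1 in R 4.3.3 was fitted to log2(FPKM + 1) of the 20038 genes averaging 1 FPKM or more (eBayes with trend, a two-sided test with Benjamini-Hochberg adjustment and a threshold of 0.05). It supplies standard errors and the background share of calls, and no p of a member is used. Its p-values cover only the spread between these samples, which may be technical. Fold changes on this scale understate the change of weakly expressed genes. Relative depth was read from the steps of low FPKM values, since ratios between libraries pile up at ratios of whole fragments. The fit was tested on simulated data. The depth estimate was tested only at simulated depths close to those reported here, so its accuracy at other depths is not known. Absolute depth is unknown, so no counting intervals are given.

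By rule, full IDs are given for the member highest in r_1m and for the highest among those at 0 in all r_3m libraries. The other genes described by prefix (steps at the threshold, uneven libraries, neighbouring IDs) were chosen after their values were seen. Gene lists and cell type markers by product name could not be run, because the table gives no names, and no sequence is shown for the same reason. Which genes are near-identical copies or overlap is not known. Alternatives were other pseudocounts, minimums, scalings and thresholds of d, and each library left out in turn.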

Additional observations from a re-analysis of the deposited data

How the results depend on the processing

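The set held 88 genes as defined and between 83 and 95 genes with each library left out, of which 81 to 88 were among the 88. It held 93 genes on the TPM scale, 89 after median-of-ratios scaling and 93 with means of log2 values. It depended on the added constant and on the threshold: 277 genes met a d of -4 with a pseudocount of 0.1, which takes in weakly expressed genes, 271 met a d of -3 or lower and 24 a d of -5 or lower. Members listed at 0 in all r_3m libraries numbered 14, and 14 to 19 with 1 r_3m library left out. The summed level of the members was 404 TPM in r_3m and 11666 TPM in r_1m on the TPM scale. Without the 10 highest members it was 104 FPKM in r_3m and 4845 FPKM in r_1m. All 88 were called lower in limma under each of the 12 alternatives run, where 4920 to 7355 genes of the table were called lower; members were picked by the same contrast, so this says nothing about stability. The share of genes next to a member with a d of -1 or lower was 40.0% to 42.7% under 8 alternatives chosen after seeing the data. No paired analysis was possible because replicate numbers only follow the order of the records. Depth limits what a value of 0 in r_3m can show, and the shallowest library, r_3m replicate 1, at 64.0%, most of all.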
